A study of Mus musculus with 12 samples.

Results

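The genes examined here were 10 mouse genes of the unfolded protein response, named from the known biology of endoplasmic reticulum (ER) stress, by a rule that uses no measured value, though with earlier results of these data known: Hspa5, Hsp90b1, Calr, Sdf2l1, Creld2, Dnajb9, Xbp1, Atf4, Ddit3 and Herpud1. They are 10 of the 54232 genes in the count table, and all 10 passed the filter on low counts. Intestinal stem cells (ISCs) were sorted from the small intestinal crypts of mice aged 2 months (young) or 22 months (old), and polyadenylated RNA was read from its 3′ end. The SM6 libraries came from wild-type (WT) C57/Bl6 mice, sorted with antibodies to a panel of surface markers. The Lgr5-GFP libraries came from mice labelled Lgr5-EGFP-IRES-CreERT, which the study's methods write as Lgr5-EGFP-IRES-CreERT2. In these mice GFP and a drug-inducible Cre recombinase are made from the locus of the stem cell receptor gene Lgr5. Each of the 4 groups (SM6 young, SM6 old, Lgr5-GFP young, Lgr5-GFP old) held 3 libraries, each from 1 mouse. The sample notes describe the SM6 sort for every library, whereas the study describes a sort on the GFP reporter for the Lgr5-GFP mice. Strain, reporter and sorting method therefore changed together and cannot be told apart, and the comparison between them is called isolation below.

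The unfolded protein response adjusts the folding capacity of the ER to the load of proteins that enter it. When unfolded proteins draw the chaperone BiP away, the sensors IRE1, PERK and ATF6 are set free to act: IRE1 splices the Xbp1 message into the form that encodes an active transcription factor, PERK slows translation while favouring that of Atf4, and ATF6 is cut to release a transcription factor. In the intestinal crypt the response is best known in Paneth and goblet cells, which secrete large amounts of antimicrobial peptides and mucins, and Xbp1 is needed to maintain Paneth cells. BiP is also called GRP78 and is the product of Hspa5, and low surface GRP78 is one of the criteria of the SM6 sort. The SM6 gate was thus set partly on the protein product of one of the 10 genes.

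The promoters of several of these genes carry the ER stress response element, which NF-Y and cleaved ATF6 are known to bind, and those copies are shown because they are the sequence feature by which the genes are usually recognised. The search covered the 250 bases before each transcription start in RefSeq (build GRCm38.p6, both strands), for which all 10 genes had an entry. Some windows reach into the gene as annotated by GENCODE, whose start can differ. This held for 120 bases in Hspa5, 65 in Hsp90b1, 19 in Ddit3, 3 in Calr and all 250 in Dnajb9. The Hspa5 copy printed below lies inside the annotated gene. The motif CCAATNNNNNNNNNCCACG was present in 4 of the 10 promoters and in 0.113% of the 32851 promoters of the table. The copies are printed in the direction of the motif, with its fixed letters in capitals:
Hspa5: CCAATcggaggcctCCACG
Hsp90b1, farther from the start: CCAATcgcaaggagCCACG
Hsp90b1, nearer to the start: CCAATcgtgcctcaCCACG
Calr: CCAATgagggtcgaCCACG
Creld2: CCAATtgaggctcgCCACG
These lie at chr2:34772025-34772043 (plus strand), chr10:86705638-86705656 (minus strand), chr10:86705533-86705551 (plus strand), chr8:84847075-84847093 (plus strand) and chr15:88819520-88819538 (minus strand). The related motif ATTGGNCCACG was found in Herpud1 alone among the 10, at chr8:94386377-94386387 (plus strand), and in 0.0304% of all promoters:
Herpud1: ATTGGgCCACG
The shorter CCACG, which is contained in both motifs, was found in 8 of the 10 promoters against 28.3% of all promoters. TGACGTGG, a site of spliced XBP1, was in none of the 10 and in 0.563% of all promoters. TGATGNAAT, a site of ATF4 dimers, was also in none of the 10 and in 0.816% of all promoters.

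The promoters of Creld2 and Sdf2l1 are given whole, since both fell with age in Lgr5-GFP cells (below) and they differ in the element. Capitals mark every CCACG in either orientation and, in Creld2, the whole element:
Creld2, chr15:88819396-88819645 (plus strand): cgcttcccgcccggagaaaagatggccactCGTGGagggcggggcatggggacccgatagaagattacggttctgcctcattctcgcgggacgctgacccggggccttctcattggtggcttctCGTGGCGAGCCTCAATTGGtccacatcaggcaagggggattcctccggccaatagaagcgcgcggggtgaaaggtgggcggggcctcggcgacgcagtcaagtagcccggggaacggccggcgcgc
Sdf2l1, chr16:17132384-17132633 (minus strand): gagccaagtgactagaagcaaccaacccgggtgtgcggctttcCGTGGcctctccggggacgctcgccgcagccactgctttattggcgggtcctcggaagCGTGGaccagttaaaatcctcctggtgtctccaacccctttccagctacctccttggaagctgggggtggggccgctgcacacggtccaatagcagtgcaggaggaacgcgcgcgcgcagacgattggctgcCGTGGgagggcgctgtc
Neither window overlaps the annotated gene, which begins next to it.

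The 12 libraries held 970472 to 3815425 counts each. Transcripts typical of Paneth cells (45 genes, mostly defensins) made up 1.42% to 26.9% of a library. They stood highest in SM6 old replicate 3 (26.9%) and Lgr5-GFP young replicate 1 (26.9%). In the SM6 libraries the Paneth share was 1.42% to 8.91% in young and 5.48% to 26.9% in old mice. In the Lgr5-GFP libraries it was 6.06% to 26.9% in young and 2.52% to 4.21% in old mice, with no overlap. Goblet transcripts (14 genes) also parted the SM6 ages, with 0.599% to 0.924% in young and 1.46% to 1.84% in old libraries. The summed share of 12 stem cell genes was 1.33% to 1.71% in young against 0.771% to 0.883% in old SM6 libraries, and 1.16% to 1.43% over the Lgr5-GFP libraries of both ages, which overlapped. Markers of plasma and B cells summed to 24 counts (0.00154%) in SM6 old replicate 3, mostly Igkc (14) and Igha (9), and to 1 to 8 counts in the other libraries, with Iglc1, Iglc2 and Cd79a at 0 throughout. The summed share of 8 immune cell markers, of which Lyz2 reached 78 counts, was at most 0.00246%, and it was higher in every young (0.000695% to 0.00246%) than in every old Lgr5-GFP library (0.000103% to 0.000439%).

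Values below are CPM after TMM scaling, that is, counts scaled to a common library size with a correction for composition. Fold changes and their standard errors (SE) are on the log2 scale from edgeR's quasi-likelihood test on 13368 genes, two-sided, with Benjamini-Hochberg adjustment over all of them. A gene is said to rise or fall where the adjusted p was under 0.05. In bulk libraries, a change in the number of cells of a type and a change in RNA per cell cannot be told apart.

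With age, 1 of the 10 genes rose in SM6 cells (Xbp1) and none fell, where 2.42% of all genes tested changed (0.643% rose and 1.77% fell). In Lgr5-GFP cells, 2 of the 10 fell (Sdf2l1 and Creld2) and none rose, where 0.471% of all genes changed (0.284% fell). The age effect differed between the isolations for 3 of the 10 (Xbp1, Sdf2l1 and Creld2), being lower in Lgr5-GFP cells each time, where 0.658% of all genes differed (0.606% in that direction). Averaged over both isolations, edgeR called none of the 10 at an adjusted p under 0.05, where 2.66% of all genes changed. Without adjustment, 2 of the 10 (Atf4 and Sdf2l1) and 12.8% of all genes had a p under 0.05 in that average, and DESeq2 and limma voom also called 0. Without SM6 old replicate 3, Sdf2l1 fell in that average. The median change of the 10 genes was 0.28 in SM6 and -0.37 in Lgr5-GFP cells, beside -0.01 and -0.03 for all genes tested. The fitted change was positive in SM6 and negative in Lgr5-GFP cells for 6 of the 10 genes, against 24.7% of all genes.

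**Figure D1:**
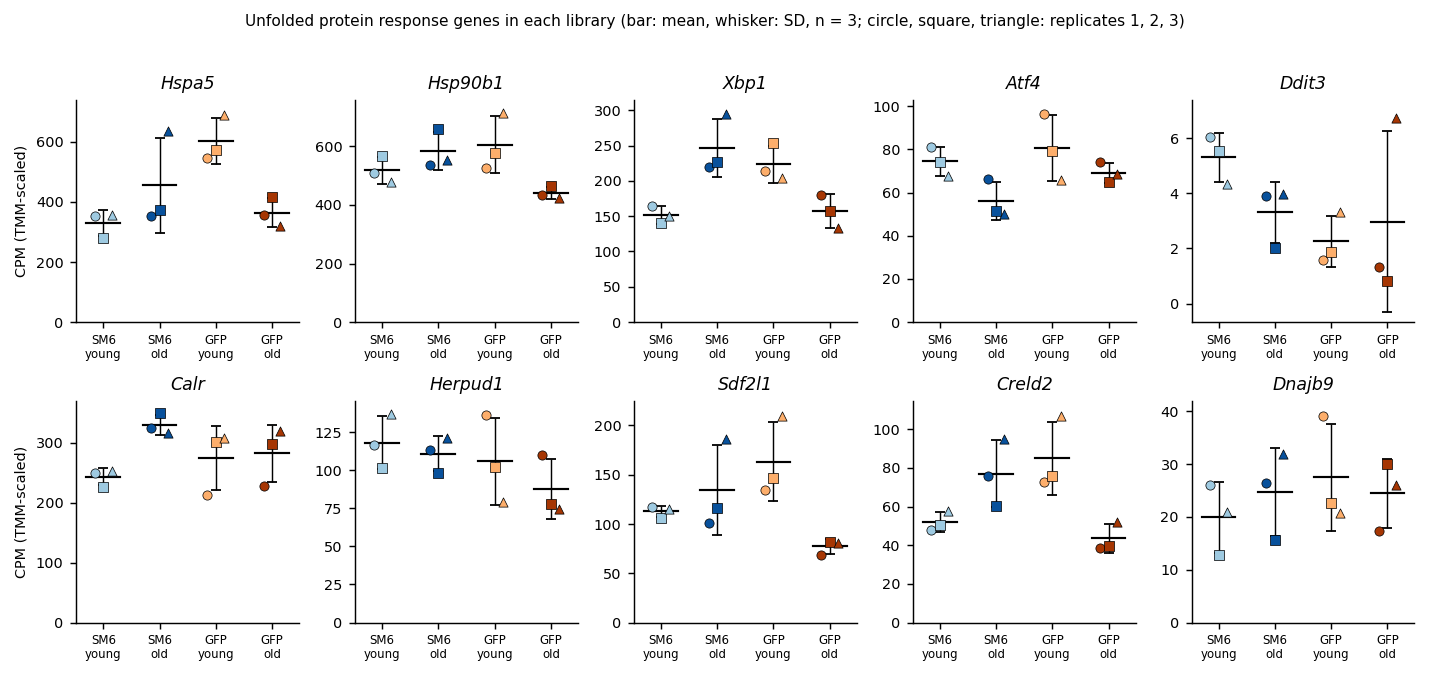
TMM-scaled CPM of each of the 10 genes (vertical axes, starting at 0 apart from the Ddit3 panel, whose SD reaches below it) in the 12 libraries, by group (GFP stands for Lgr5-GFP). Circles, squares and triangles are replicates 1, 2 and 3, horizontal bars are means and whiskers the SD (n = 3). In the Creld2, Sdf2l1 and Xbp1 panels the old Lgr5-GFP libraries lie under all young Lgr5-GFP libraries.

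Xbp1 (chr11:5520659-5525893) encodes the transcription factor activated by IRE1. In SM6 young cells it measured 165, 141 and 150 CPM in replicates 1 to 3, and in SM6 old cells 219, 227 and 294 CPM. In Lgr5-GFP young cells it measured 214, 253 and 204 CPM, and in Lgr5-GFP old cells 181, 158 and 133 CPM. Each old SM6 library was thus above every young one, and every old Lgr5-GFP library below every young one. Xbp1 rose with age in SM6 cells by 0.70 (SE 0.17, edgeR adjusted p = 0.0272), or 1.62-fold. In Lgr5-GFP cells its change was -0.50 (SE 0.17, edgeR adjusted p = 0.271). The difference between the effects was -1.20 (SE 0.24, edgeR adjusted p = 0.0155). SM6 old replicate 3, the library highest in Xbp1, also held the most Paneth transcripts of its group. Without it the SM6 change was 0.56 (edgeR adjusted p = 0.101) and the difference between isolations -1.06 (edgeR adjusted p = 0.0402). The rise was also not called without SM6 old replicate 2 (0.76, edgeR adjusted p = 0.0513), SM6 young replicate 2 (0.65, edgeR adjusted p = 0.156) or SM6 young replicate 3 (0.69, edgeR adjusted p = 0.0979). The difference was not called without SM6 young replicate 2 (-1.15, edgeR adjusted p = 0.0637) or Lgr5-GFP old replicate 3 (-1.10, edgeR adjusted p = 0.0558), and its size changed little. The counts are summed over the gene, so spliced and unspliced Xbp1 were not separated.

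Creld2 (chr15:88819646-88826683) encodes an ER protein with disulfide isomerase activity. It measured 47.9, 50.4 and 57.8 CPM in SM6 young and 75.6, 60.4 and 95.1 CPM in SM6 old cells. Its Lgr5-GFP values were 72.8, 75.6 and 107 CPM in young and 38.7, 39.8 and 52.1 CPM in old libraries. The ages did not overlap in either isolation, and their order was opposite. Creld2 fell with age in Lgr5-GFP cells, with a change of -0.98 (SE 0.22, edgeR adjusted p = 0.0381), which left 0.506 of the young level. In SM6 cells its change was 0.56 (SE 0.21, edgeR adjusted p = 0.216). The difference of -1.55 (SE 0.30, edgeR adjusted p = 0.0128) was the largest in size of the 10 genes, and it stayed called whichever single library was left out (-1.70 to -1.34, edgeR adjusted p of 0.00872 to 0.0479).

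Sdf2l1 (chr16:17130138-17132383) encodes a cofactor that works with BiP and ER J-proteins. It measured 117, 106 and 115 CPM in SM6 young and 101, 116 and 186 CPM in SM6 old cells, which overlapped. In Lgr5-GFP cells it measured 134, 147 and 209 CPM in young and 68.6, 82.1 and 81.0 CPM in old libraries, which did not. The 3 old Lgr5-GFP libraries were the lowest of all 12. Sdf2l1 fell in Lgr5-GFP cells, with a change of -1.09 (SE 0.22, edgeR adjusted p = 0.0194), which left 0.471 of the young level. Its SM6 change was 0.25 (SE 0.21, edgeR adjusted p = 0.690) and turned to -0.04 without SM6 old replicate 3. The difference between isolations was -1.34 (SE 0.30, edgeR adjusted p = 0.0319), and -1.04 (edgeR adjusted p = 0.0976) without that library. Over the 12 fits that each left out 1 library it was called in 4, and the edgeR adjusted p reached 0.112.

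The calls of Sdf2l1 and Creld2 were also near the threshold. Lgr5-GFP young replicate 3 was the highest in both, and without it Sdf2l1 changed by -0.86 (edgeR adjusted p = 0.101) and Creld2 by -0.77 (edgeR adjusted p = 0.200). Leaving out Lgr5-GFP old replicate 1 gave -1.01 for Sdf2l1 (edgeR adjusted p = 0.121) and -0.90 for Creld2 (edgeR adjusted p = 0.170). Leaving out Lgr5-GFP old replicate 3 gave -1.12 for Sdf2l1 (edgeR adjusted p = 0.0549) and -1.12 for Creld2 (edgeR adjusted p = 0.0502). Creld2 alone also lost its call without Lgr5-GFP old replicate 2 (-0.92, edgeR adjusted p = 0.103), Lgr5-GFP young replicate 2 (-1.05, edgeR adjusted p = 0.0504) or SM6 young replicate 2 (-0.98, edgeR adjusted p = 0.0517), with changes close to that over all libraries. The direction was the same in each of these fits.

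**Figure D2:**
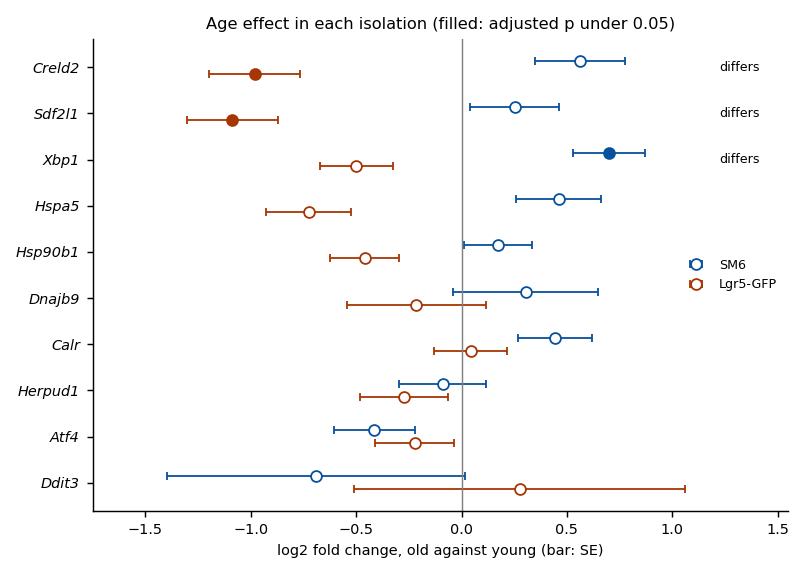
Change with age of each gene on the log2 scale (horizontal axis, old against young), in SM6 cells (blue) and Lgr5-GFP cells (brown), with the SE as a bar. Filled points have an edgeR adjusted p under 0.05 and the word differs marks the 3 genes whose age effects differed between isolations, Creld2 by -1.55, Sdf2l1 by -1.34 and Xbp1 by -1.20.

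Hspa5 (chr2:34771970-34777547) encodes BiP, the main ER chaperone. It measured 354, 282 and 357 CPM in SM6 young and 354, 375 and 637 CPM in SM6 old cells, which overlapped. The Lgr5-GFP values were 547, 572 and 690 CPM in young and 357, 417 and 319 CPM in old libraries, which did not. By mean level the groups stood in the order Lgr5-GFP young (603 ± 76.2 CPM, SD, n = 3), SM6 old (455 ± 158), Lgr5-GFP old (365 ± 49.4) and SM6 young (331 ± 42.6), and each group overlapped the next. edgeR called no age effect of Hspa5. It changed by 0.46 (SE 0.20, edgeR adjusted p = 0.309) in SM6 and by -0.73 (SE 0.20, edgeR adjusted p = 0.122) in Lgr5-GFP cells. The latter was called by limma voom (-0.72, adjusted p = 0.0449) and by edgeR with no filter on low counts (-0.75, adjusted p = 0.00467), and not by DESeq2 (adjusted p = 0.0559). The difference of -1.19 (SE 0.28, edgeR adjusted p = 0.0508) missed the threshold, and was past it with DESeq2 (adjusted p = 0.00612) and limma voom (adjusted p = 0.0395). The difference was also called by edgeR without SM6 old replicate 1 (-1.35, adjusted p = 0.0270) or replicate 2 (-1.31, adjusted p = 0.0383). Without SM6 old replicate 3 the SM6 change was 0.15, the difference -0.87 (edgeR adjusted p = 0.119) and the fall in Lgr5-GFP cells was called (-0.72, edgeR adjusted p = 0.0218).

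Hsp90b1 (chr10:86690209-86705509) encodes GRP94, the HSP90 of the ER. It measured 477 to 568 CPM in SM6 young and 538 to 660 CPM in SM6 old cells. In Lgr5-GFP cells it measured 526, 579 and 713 CPM in young and 433, 465 and 423 CPM in old libraries, with no overlap. The changes were 0.17 (SE 0.16) and -0.46 (SE 0.16), with edgeR adjusted p of 0.730 and 0.288. A gene on the opposite strand, 1810014B01Rik, overlaps 10.3% of the exon bases of Hsp90b1. It held 368 counts over all libraries beside 10544 for Hsp90b1.

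Calr (chr8:84841850-84846934) encodes calreticulin, which folds glycoproteins and stores calcium. It measured 227 to 252 CPM in SM6 young and 325, 349 and 316 CPM in SM6 old cells, so every old library was higher. In Lgr5-GFP cells the ages overlapped widely, at 212 to 308 CPM in young and 228 to 320.2 CPM in old libraries. The changes were 0.44 (SE 0.17, edgeR adjusted p = 0.241) and 0.04 (SE 0.17, edgeR adjusted p = 0.972). Dnajb9 (chr12:44205559-44210326), which encodes the J-protein ERdj4, ranged from 12.7 to 39.1 CPM over the 12 libraries, and all its groups overlapped. The changes of Dnajb9 were 0.30 (SE 0.34) and -0.21 (SE 0.33), with edgeR adjusted p of 0.790 and 0.896.

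On the PERK side of the response, Atf4 (chr15:80255184-80257541), the transcription factor of the integrated stress response, was lower in every old SM6 library than in any young one. It measured 81.3, 74.3 and 67.9 CPM in SM6 young and 66.2, 51.6 and 50.3 CPM in SM6 old cells, a change of -0.41 (SE 0.19, edgeR adjusted p = 0.357). The Lgr5-GFP libraries held 65.8 to 96.4 CPM in young and 65.1 to 74.0 CPM in old libraries, a change of -0.22 (SE 0.19, edgeR adjusted p = 0.777). Neither change of Atf4 was called by edgeR, and in Lgr5-GFP cells it was -0.054 without Lgr5-GFP young replicate 1. Its protein is set mostly by translation, which RNA levels do not show.

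Ddit3 (chr10:127290774-127296288) encodes CHOP, a factor of stress-induced cell death that lies downstream of ATF4. It was close to the limit of detection, with 6 to 10 counts in SM6 young, 3 to 5 in SM6 old, 2 to 8 in Lgr5-GFP young and 1 to 7 in Lgr5-GFP old libraries. These counts allow no statement on its direction: the changes were -0.69 (SE 0.71) and 0.28 (SE 0.78). A second gene identifier with the symbol Ddit3 overlaps 6.13% of its exon bases and was at 0 in every library, and the Mars gene overlaps it on the opposite strand. Herpud1 (chr8:94386438-94395377), a membrane protein of ER-associated degradation, measured 101 to 137 CPM in SM6 young and 98.4 to 121 CPM in SM6 old cells. The Lgr5-GFP libraries held 79.1 to 136 CPM in young and 74.3 to 110.0 CPM in old libraries. Its ages overlapped in both isolations, with changes of -0.09 (SE 0.21, edgeR adjusted p = 0.921) and -0.27 (SE 0.21, edgeR adjusted p = 0.741). The Lgr5-GFP change of Herpud1 was -0.48 to -0.026 over the fits without 1 library.

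Counting genes whose old and young libraries did not overlap, 5 of the 10 stood apart in SM6 cells, with Xbp1, Calr and Creld2 higher and Atf4 and Ddit3 lower. For Ddit3 that gap is between 6 and 5 counts, too few to give a direction. Over all genes tested this held for 17.5% (7.74% higher and 9.78% lower). In Lgr5-GFP cells 5 of the 10 stood apart, all lower in old mice (Hspa5, Hsp90b1, Xbp1, Sdf2l1 and Creld2), against 14.6% of all genes (7.95% lower). Paneth transcripts were also lower in every old than in every young Lgr5-GFP library, and goblet transcripts higher in every old SM6 library. Of 11 heat shock genes, which respond to unfolded proteins in the cytosol, 2 fell in Lgr5-GFP cells, and of 12 immediate early genes 2 fell in SM6 cells. Of 11 enterocyte genes, 5 rose in SM6 cells, 3 fell in Lgr5-GFP cells and 6 had a lower age effect in Lgr5-GFP cells. For 28 Paneth genes these counts were 2, 4 and 17, for 14 goblet genes 7, 0 and 5, and for 18 enteroendocrine genes 3, 0 and 1. Their part in these differences was not tested beyond the fits with Paneth and goblet covariates given below.

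Between isolations at the same age, edgeR called none of the 10 genes. At 2 months 0.0898% of all genes were called. At an unadjusted p under 0.05 were 7.47% of all genes and 4 of the 10 (Hspa5, Xbp1, Sdf2l1 and Creld2), each higher in Lgr5-GFP cells. These libraries are the young ones listed above, and in all 4 genes every Lgr5-GFP library was above every SM6 library, as were 6.38% of all genes. Hspa5, whose product the SM6 sort selects against, was 1.82-fold higher in Lgr5-GFP young cells (0.87, SE 0.20, edgeR adjusted p = 0.120). It was called by DESeq2 (adjusted p = 0.0189), by limma voom (adjusted p = 0.0204) and by edgeR without SM6 old replicate 3 (adjusted p = 0.0114). Paneth transcripts were 1.42% to 8.91% of the SM6 young and 6.06% to 26.9% of the Lgr5-GFP young libraries. In Lgr5-GFP young cells 2 of 11 heat shock genes and 1 of 12 immediate early genes were higher, and 2 of 18 enteroendocrine genes were lower. The part of the sort, of the strain, of the enteroendocrine transcripts and of the heat shock response in the Hspa5 level was not tested. The Hspa5 difference was 0.73 (edgeR adjusted p = 0.365) with the Paneth share as a covariate and 0.95 (edgeR adjusted p = 0.00779) without the 2 libraries highest in Paneth transcripts.

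At 22 months 0.718% of all genes were called. An unadjusted p under 0.05 was found for 9.4% of all genes and for 4 of the 10 (Hsp90b1, Xbp1, Sdf2l1 and Creld2), each lower in Lgr5-GFP cells. All 4 had every Lgr5-GFP library below every SM6 library, as did 7.41% of all genes. The changes were -0.64 for Xbp1 (SE 0.17, edgeR adjusted p = 0.0976), -0.83 for Creld2 (SE 0.22, edgeR adjusted p = 0.0960) and -0.80 for Sdf2l1 (SE 0.22, edgeR adjusted p = 0.104). Over the fits without 1 library that of Sdf2l1 was -0.96 to -0.48 (edgeR adjusted p of 0.0583 to 0.450). DESeq2 called 1 of the 10 (Xbp1, adjusted p = 0.0305) and limma voom 0. Hspa5 changed by -0.32 (SE 0.20) at this age, and by 0.02 without SM6 old replicate 3. Paneth transcripts did not overlap at this age, at 5.48% to 26.9% of SM6 and 2.52% to 4.21% of Lgr5-GFP libraries, and all 28 tested Paneth genes were lower in Lgr5-GFP cells, 2 of them called. With the Paneth share as a covariate the changes were -0.51 for Xbp1, -0.85 for Creld2 and -0.71 for Sdf2l1 (edgeR adjusted p of 0.472, 0.252 and 0.377). Old Lgr5-GFP cells were also called lower in 8 of 14 goblet, 9 of 18 enteroendocrine and 6 of 11 enterocyte genes. With the goblet share as a covariate the changes were -0.41 for Xbp1, -1.71 for Creld2 and -1.59 for Sdf2l1, with edgeR adjusted p of 1.00, 0.794 and 1.00, and the part of the enteroendocrine and enterocyte transcripts was not tested. The isolation and age comparisons share libraries, so they are not independent of each other.

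Other genes of the pathway were taken from named lists. Among 14 tested genes of ER folding, 1 rose in SM6 cells with age (0.643% of all genes did): Dnajc10, an ER disulfide reductase, by 1.09 (SE 0.26, edgeR adjusted p = 0.0203), from 26.9 ± 5.78 to 57.5 ± 15.9 CPM (SD, n = 3). It was not called without SM6 young replicate 2 or 3 or SM6 old replicate 1 or 3 (0.87 to 1.13, edgeR adjusted p of 0.0587 to 0.140). Dnajc10 was also not called with the Paneth covariate (0.83, edgeR adjusted p = 0.137), with the goblet covariate (0.76, edgeR adjusted p = 0.733) or without the 2 libraries highest in Paneth transcripts (0.87, edgeR adjusted p = 0.102). In Lgr5-GFP cells 1 of the 14 fell (0.284% of all genes did): Manf, a secreted ER stress protein, with -0.70 (SE 0.16, edgeR adjusted p = 0.0490). Of the 12 fits without 1 library, only 1 kept that call (-0.81 to -0.58, edgeR adjusted p of 0.0335 to 0.252). Manf measured 149, 137 and 149 CPM in the young and 207, 214 and 225 CPM in the old SM6 libraries. The Lgr5-GFP libraries held 203, 199 and 219 CPM when young and 145, 133 and 103 CPM when old. It thus had the same ordering as Xbp1 and Creld2 within each isolation. It was the only folding gene whose age effects were called different between isolations (-1.27, SE 0.23, edgeR adjusted p = 0.00764), where 0.658% of all genes differed. That call held in all 12 fits without 1 library. It was lost with library totals only (-0.93, edgeR adjusted p = 0.136), with the Paneth covariate (-1.33, edgeR adjusted p = 0.0943) and with the goblet covariate (-1.04, edgeR adjusted p = 0.955). The median change of the 14 was 0.47 in SM6 and -0.43 in Lgr5-GFP cells, and 9 of the 14 were positive in the former and negative in the latter, as were 24.7% of all genes.

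Hyou1, a partner of BiP, did not share that pattern. It fell in the average over both isolations (-0.92, SE 0.21, edgeR adjusted p = 0.0150), where 2.66% of all genes changed. It measured 75.6 ± 5.15 CPM in SM6 young and 35.6 ± 3.63 CPM in SM6 old cells, and 74.1 ± 14.5 and 44.6 ± 31.9 CPM in Lgr5-GFP young and old cells (SD, n = 3). It was not called without SM6 old replicate 2, Lgr5-GFP young replicate 3 or Lgr5-GFP old replicate 1 (-0.88 to -0.79, edgeR adjusted p of up to 0.0598). At 22 months Txndc5, an ER thioredoxin, was lower in Lgr5-GFP than in SM6 cells (55.2 ± 5.94 against 110.5 ± 4.95 CPM, SD, n = 3, edgeR adjusted p = 0.00353), as was Manf (-0.75, SE 0.16, edgeR adjusted p = 0.0228). The Txndc5 call held in all 12 fits without 1 library and that of Manf in 7. With library totals only neither was called (-0.80 for Txndc5 and -0.54 for Manf, edgeR adjusted p of 0.0762 and 0.277), nor with the goblet covariate (-0.68 and -0.52, edgeR adjusted p of 1.00 for both). With the Paneth covariate Txndc5 was called (edgeR adjusted p = 0.0288) and Manf was not (edgeR adjusted p = 0.0692). Txndc5 and Manf were 2 of the 14 folding genes, where 0.718% of all genes were called at 22 months. No other gene of the pathway lists was called between the isolations.

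Among 10 tested genes of ER-associated degradation, 1 rose and 1 fell with age in SM6 cells, where 0.643% of all genes rose and 1.77% fell. Selenos, a selenoprotein of the degradation complex, rose by 0.77 (SE 0.18, edgeR adjusted p = 0.0204), from 72.9 to 124 CPM on average. It was called in 9 of the 12 fits without 1 library (0.64 to 0.91) and not without SM6 young replicate 2 or 3 or SM6 old replicate 2. Syvn1, its ubiquitin ligase HRD1, fell in SM6 cells (-1.61, SE 0.43, edgeR adjusted p = 0.0442), from 13.2 ± 3.46 to 4.28 ± 1.06 CPM. Syvn1 fell also in the average (-1.15, SE 0.29, edgeR adjusted p = 0.0312), where 2.66% of all genes changed. Its low counts gave a call in 3 (SM6) and 4 (average) of the 12 fits without 1 library. No degradation gene was called in Lgr5-GFP cells, and the medians of the 10 were 0.30 and -0.28.

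Of the 7 sensors and proteases (such as Ern1, which encodes IRE1, and Atf6), none was called in any comparison, with medians of 0.38 and -0.38. Of 13 genes of ER import, 1 fell in the average of both isolations, where 2.66% of all genes changed. This was Tram1, a part of the translocation channel (-0.58, SE 0.13, edgeR adjusted p = 0.00993). None of the 13 was called in a single isolation (medians 0.13 and -0.14). Of 17 tested targets of ATF4, 1 fell in the average, again beside 2.66% of all genes. This was Phgdh, the first enzyme of serine synthesis (-1.02, SE 0.27, edgeR adjusted p = 0.0442). None of the 17 was called in a single isolation. Tram1 was called in all 12 fits without 1 library and Phgdh in 3. The medians of the ATF4 targets were -0.03 and -0.28. Ppib, Derl3, Trib3, Chac1 and Slc7a11 were listed but did not pass the filter on low counts.

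**Figure D3:**
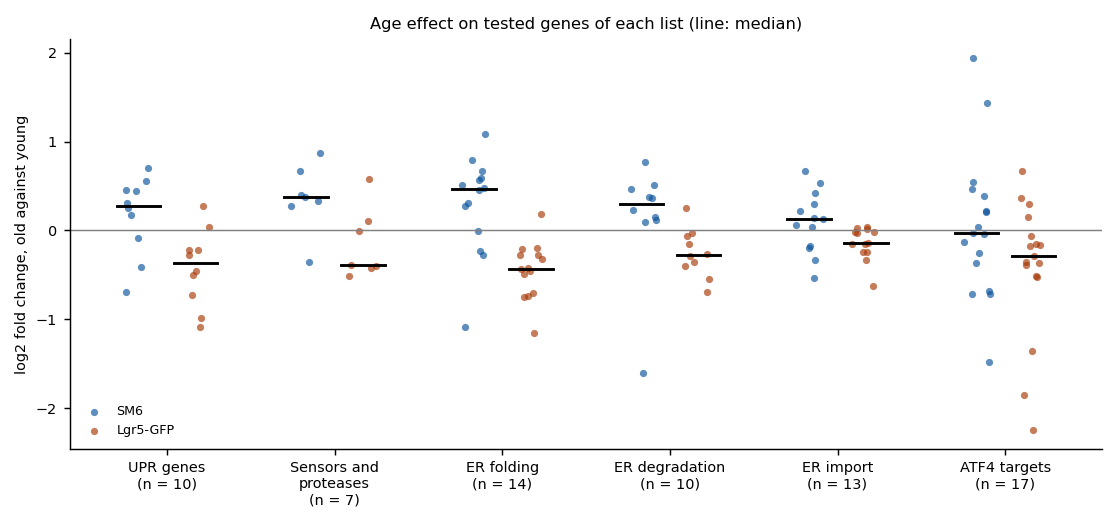
Change with age on the log2 scale (vertical axis) of every tested gene of the 10 unfolded protein response genes and of 5 further lists, in SM6 cells (blue) and Lgr5-GFP cells (brown). Black lines are medians. They lie above 0 in SM6 and below 0 in Lgr5-GFP cells for the 10 genes (0.28 and -0.37) and for ER folding (0.47 and -0.43). The same holds for the sensors and proteases (0.38 and -0.38), ER degradation (0.30 and -0.28) and ER import (0.13 and -0.14). For the ATF4 targets they are -0.03 and -0.28, beside -0.01 and -0.03 for all genes tested.

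The levels were then related to transcripts of the secretory cells. For each gene a slope was fitted with edgeR beside the 4 group means, as the change in log2 CPM per doubling of the share of a library held by the marker list, so that differences between groups did not enter. No slope of the 10 genes passed an adjusted p of 0.05 for any of the 3 cell types, and DESeq2 and limma voom likewise called 0. For Paneth transcripts 0.367% of all genes had a called slope, among them 22 of the 28 tested Paneth genes that form the share itself. The slopes of the 10 genes ran from -0.06 (Hsp90b1, SE 0.06) to 0.27 (Dnajb9, SE 0.12, edgeR adjusted p = 0.733), and 1 of them, Dnajb9, had an unadjusted p under 0.05, as did 6.29% of all genes. Hspa5 had a slope of 0.08 (SE 0.072), Xbp1 of 0.08 (SE 0.066), Sdf2l1 of 0.05 (SE 0.080) and Creld2 of -0.01 (SE 0.083). Nupr1, a stress-induced ATF4 target, was the only gene of the pathway lists with a called Paneth slope (1.05, SE 0.13, edgeR adjusted p = 6.29e-06).

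For goblet transcripts the slopes were positive in 4 of the 10 genes, and 0.00748% of all genes had a called slope. Of the 14 goblet genes themselves only 1 was called, so this fit could detect little. Herpud1 had a slope of 0.55 (SE 0.20) and Creld2 of -0.49 (SE 0.21), the 2 of the 10 with an unadjusted p under 0.05 (3.93% of all genes had one), and their edgeR adjusted p was 1.00. For enteroendocrine transcripts, which were 0.0796% to 0.274% of the SM6 and 0.00886% to 0.0284% of the Lgr5-GFP libraries, 0.0449% of all genes had a called slope, among them 2 of the 18 genes of the list. Of the 10, Hspa5 alone had an unadjusted p under 0.05 (slope 0.30, SE 0.14, edgeR adjusted p = 0.712), against 6.75% of all genes. Its slope was 0.092 without SM6 old replicate 3 and 0.092 to 0.41 over the fits without 1 library.

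**Figure D4:**
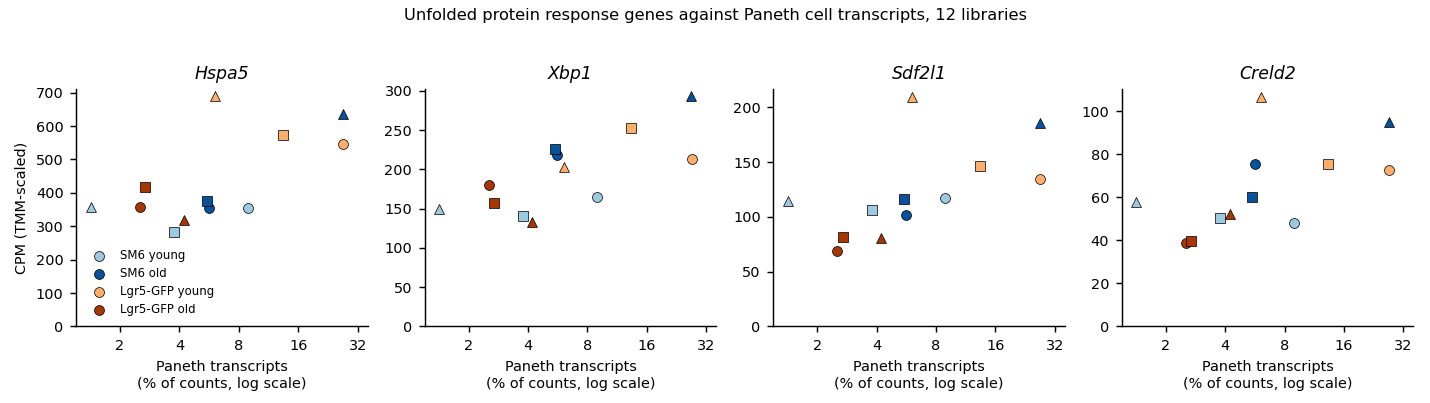
TMM-scaled CPM of Hspa5, Xbp1, Sdf2l1 and Creld2 (vertical axes from 0) against the percentage of counts from 45 Paneth genes (horizontal axis, log scale) in the 12 libraries, coloured by group. Marker shapes are replicates. SM6 old replicate 3, at a share of 26.9%, was the highest library in Xbp1, and Lgr5-GFP young replicate 3, at a share of 6.06%, was the highest in Hspa5, Sdf2l1 and Creld2.

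Between groups the Paneth share was higher in old SM6 and lower in old Lgr5-GFP libraries on average, the same signs as the fitted changes of Xbp1, Sdf2l1 and Creld2. With the Paneth share as a covariate the age effects were 0.59 for Xbp1 in SM6 cells (edgeR adjusted p = 0.135), and -0.99 for Sdf2l1 (edgeR adjusted p = 0.141) and -1.01 for Creld2 (edgeR adjusted p = 0.156) in Lgr5-GFP cells. None of the 3 was then called. The differences between isolations were -0.92 for Xbp1, -1.16 for Sdf2l1 and -1.59 for Creld2, with edgeR adjusted p of 0.460, 0.427 and 0.161. With the goblet share as a covariate, chosen after seeing the data, Xbp1 changed by 0.54 in SM6 cells (edgeR adjusted p = 0.723). Sdf2l1 (-1.37, edgeR adjusted p = 0.0172) and Creld2 (-1.31, edgeR adjusted p = 0.0248) were still lower in old Lgr5-GFP cells in that fit. Their SM6 changes there were 0.75 and 1.12 (edgeR adjusted p of 0.583 and 0.264). The differences between isolations became -2.12 for Sdf2l1 and -2.43 for Creld2, larger than without the covariate but not called (edgeR adjusted p of 0.457 and 0.236), and -0.96 for Xbp1 (edgeR adjusted p = 0.976). Leaving out both libraries with 26.9% Paneth transcripts, also chosen after seeing the data, gave 0.56 for Xbp1 in SM6 cells (edgeR adjusted p = 0.0937). The same choice gave -1.21 for Sdf2l1 (edgeR adjusted p = 0.00320), -1.09 for Creld2 (edgeR adjusted p = 0.0198) and -0.79 for Hspa5 (edgeR adjusted p = 0.0244) in Lgr5-GFP cells, which were then the 3 called.

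The scaling also bore on these values. Scaled by library totals alone, the median change of all genes was -0.16 in SM6 and 0.16 in Lgr5-GFP cells, and none of the 10 genes was called with age. Xbp1 then changed by 0.53 in SM6 cells, and Sdf2l1 by -0.92 and Creld2 by -0.81 in Lgr5-GFP cells, in the same directions as before. The summed counts of the 10 genes were 0.169% ± 0.00826 of a young and 0.188% ± 0.00633 of an old SM6 library, and 0.207% ± 0.0435 of a young and 0.167% ± 0.00812 of an old Lgr5-GFP library (SD, n = 3).

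Among the 10 genes, levels over the 12 libraries moved most alike for Sdf2l1 and Creld2 (Pearson r = 0.893 on log2(CPM + 1), and 0.750 after subtracting each group's mean). Hspa5 and Sdf2l1 had r = 0.794, and 0.862 within groups. Atf4 ran the other way from Calr (-0.740, and -0.614 within groups). These are descriptions of 12 libraries that share groups and composition. Among 6285 genes with a mean of at least 20 CPM outside the 10, those most like Xbp1 were Dnajc10 (0.925), Manf (0.900) and Arpc5, an actin regulator (0.888). Those most like Hspa5 were Reg3g, an antimicrobial lectin of the crypt (0.860), D8Ertd738e (0.859) and Ipo11, an import receptor (0.857). Those most like Atf4 were Cnot2, of the deadenylase complex (0.878), Mbd3, of a chromatin remodelling complex (0.856), and Psmd3, a proteasome subunit (0.830).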

How the data were processed

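Per the study's methods, the authors aligned reads to GRCm38 with STAR 2.4.2a and counted exonic reads with featureCounts on GENCODE annotation, and deposited whole-number counts per gene without normalization. Whether reads with the same molecular identifier were collapsed is not given in the sources used here. Symbols and positions were matched by Ensembl identifier to a later GENCODE release on the same assembly, and promoters came from RefSeq (GRCm38.p6). Genes with more than 5 reads and at least 1 CPM in at least 1 library were tested (13368 genes). Groups were compared with edgeR 4.0.16 (TMM, quasi-likelihood, R 4.3.3) with 1 mean per group over all 12 libraries. DESeq2 1.42.0, limma voom 3.58.1, other filters and scalings, covariates, a replicate block and leaving out each library were alternatives, and the procedure was tested on simulated data. Every mouse is 1 library, so the spread behind the p-values, estimated over all 4 groups, mixes differences between mice with those of sorting and library preparation. No sequencing batch or date was given. Library totals were 970472 to 3815425 counts (median 1424340). No 2 libraries of a group agreed within counting noise (chi-square per degree of freedom of at least 3.61). Numbers shared by libraries of different groups did not pair them: deviations from group means correlated at -0.0722 to 0.0455.

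All 10 genes are named. From the other pathway lists, up to 3 called genes per list and comparison are named by adjusted p, and for likeness the 3 genes with the highest Pearson r. The 10 genes and the lists were chosen with earlier results of these data known. Figures were drawn with matplotlib 3.10.9. One marker of another cell type is not reported here.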

Additional observations from a re-analysis of the deposited data

Results flagged for a closer look

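The age effects of 4 genes differed between the isolations by the interaction term of the edgeR fit, which takes the age effect in Lgr5-GFP cells minus that in SM6 cells on the log2 scale. These were Xbp1 (-1.20), Sdf2l1 (-1.34), Creld2 (-1.55) and, among the folding genes, Manf (-1.27). Each was higher on average in old than in young SM6 cells and lower in old than in young Lgr5-GFP cells. With the Paneth share as a covariate the differences were -0.92 for Xbp1, -1.16 for Sdf2l1, -1.59 for Creld2 and -1.33 for Manf, and edgeR called none of them (adjusted p of 0.460, 0.427, 0.161 and 0.0943). Without the 2 libraries highest in Paneth transcripts they were -1.09, -1.17, -1.49 and -1.26, with Creld2 and Manf called (edgeR adjusted p of 0.0567, 0.0577, 0.0301 and 0.0158). With the goblet share as a covariate they were -0.96, -2.12, -2.43 and -1.04, and with library totals only -0.84, -0.98, -1.19 and -0.93, and edgeR called none in either (adjusted p of 0.236 to 0.976 and of 0.0932 to 0.172). Strain and sort changed with the isolation and cannot be told apart.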

How the results depend on the processing

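Over the alternatives, 171 counts of the 10 genes called stayed within 1.5 times the reported count and 34 did not. With age in SM6 cells the count went from 1 to 0 with library totals only, with the Paneth share or the goblet share as a covariate and without the 2 libraries highest in Paneth transcripts, and was 0 to 1 over the fits without 1 library. In Lgr5-GFP cells it went from 2 to 0 with library totals only and with the Paneth covariate, and was 0 to 3 without 1 library. For the difference it went from 3 to 0 with library totals only and with either covariate (the goblet covariate enlarged the differences of Sdf2l1 and Creld2, to -2.12 and -2.43), to 1 without the 2 Paneth-high libraries, and was 1 to 4 without 1 library. The average went from 0 to 1 without the 2 Paneth-high libraries and was 0 to 1 without 1 library. The isolation comparison at 2 months went from 0 to 1 with DESeq2, no filter on low counts, limma voom, robust quasi-likelihood, only the 2 groups compared and without the 2 Paneth-high libraries, and was 0 to 1 without 1 library. At 22 months it went from 0 to 1 with DESeq2 and to 2 with no filter. The replicate block took it to 1 (Creld2, -0.82, adjusted p = 0.0473) and changed no other count beyond 1.5 times, although the numbers do not pair the libraries. Slopes on secretory shares were called for 0 of the 10 throughout.

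Genes not called turned direction in 14 fits. Calr in Lgr5-GFP cells was -0.030 with limma voom, -0.074 with the Paneth covariate, -0.18 with the goblet covariate, -0.11 without the 2 Paneth-high libraries, and -0.12 to 0.18 without 1 library. With the goblet covariate Atf4 was 0.016 and Herpud1 0.12 in Lgr5-GFP cells. Without 1 library, Herpud1 in SM6 cells was -0.19 to 0.025, Sdf2l1 in SM6 cells -0.043 to 0.44 and Hspa5 between isolations at 22 months -0.47 to 0.016. Without the 2 Paneth-high libraries Sdf2l1 was -0.041 and Hspa5 0.016 in the same comparisons. The enteroendocrine slope of Hspa5 was -0.030 with no group term. No called gene turned direction in the alternatives run. Of the other pathway genes, calls were lost, with no turn of direction, for Selenos, Syvn1 (average), Phgdh, Manf and Txndc5 with library totals only, for Dnajc10, Syvn1 (SM6), Phgdh and Manf with the Paneth covariate and also without the 2 Paneth-high libraries (there for Syvn1 in the average too), and for all 6 of these with the goblet covariate. Among the remaining alternatives that keep every library, Syvn1, Phgdh or Manf lost at least 1 call under each except filterByExpr and robust quasi-likelihood.

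With 3 mice a group and Ddit3 at 10 counts or fewer, small changes were not detectable at this depth. Covariates estimated beside 4 group means leave few libraries to separate cell content from age.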
